A study of Mus musculus with 4 samples.

Results

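MiR-146a and miR-146b are the mature products of a pair of mouse microRNA genes, and they were read by 3 TaqMan PCR assays out of 750 microRNA assays on the chips. The assays were picked by name, though earlier results of these data were known when the members were chosen. They are the mouse-named assay of miR-146a (mmu-miR-146a), the mouse-named assay of miR-146b (mmu-miR-146b) and a rat-named assay of miR-146b (rno-miR-146B). Passenger (star) strands were left out of the set. All 3 assays gave a signal in every well and entered the comparison, which covered 209 assays detected in all 4 pools.

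The RNA came from synovium taken near the tibiotalar (ankle) joint. The hosts were C57BL/6J animals of a serum transfer model, in which antibodies in serum from arthritic K/BxN mice inflame the joints of healthy recipients. There were 2 non-arthritic pools at day 0, each of tissue from 3 mice, and 2 arthritic pools at day 10, the peak of inflammation, each of tissue from 10 mice. Each pool was read in 2 technical wells, so a group has 2 biological samples and 4 wells per assay. The labels give neither an age nor a sex for the mice, and pooling leaves no measure of the spread between single animals.

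MicroRNAs pair with messenger RNAs through the seed, bases 2 to 8 of the mature strand, and lower their stability and translation. NF-kappaB, the transcription factor that Toll-like and interleukin-1 receptors activate, induces miR-146a, and miR-146a in turn represses the adaptor proteins Irak1 and Traf6 of the same receptors, which makes it a textbook negative feedback. Mice that lack miR-146a develop myeloid overgrowth and autoimmune disease, and miR-146a is known as a microRNA raised in the synovium of patients with rheumatoid arthritis.

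The mature strands are shown because miR-146a and miR-146b are so alike that their assays must tell apart a few bases near the 3′ end. They are RefSeq sequences of assembly GRCm38.p6, written 5′ to 3′ with the seed in capitals.
mmu-miR-146a-5p: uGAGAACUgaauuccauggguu
mmu-miR-146b-5p: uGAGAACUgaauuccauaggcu
Counted from 1 at the 5′ end, the strands are the same at 20 of 22 positions. The changes from miR-146a to miR-146b are G18A and U21C, both outside the seed. Among 1679 mature mouse microRNAs in the RefSeq table, these 2 were the only ones with the seed GAGAACU. The rat strand of miR-146b is not printed here.

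The genes lie on different chromosomes. Mir146, the gene of miR-146a, is at chr11:43374397-43374461 on the minus strand, and no other annotated gene overlaps it. The nearest protein-coding gene is Pttg1, which encodes securin, an inhibitor of chromosome separation, 45783 bases away. Mir146b is at chr19:46342762-46342870 on the plus strand and overlaps the long noncoding RNA gene Gm36493. The protein-coding gene nearest to Mir146b is Cuedc2, 4090 bases away. Nfkb2, which encodes a subunit of NF-kappaB, lies 30362 bases from Mir146b, farther than Cuedc2, Fbxl15, Mfsd13a and Psd. The hairpin precursors are shown with the 5p strand in capitals.
Mir146 hairpin: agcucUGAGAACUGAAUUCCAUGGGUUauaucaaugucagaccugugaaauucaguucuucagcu
Mir146b hairpin: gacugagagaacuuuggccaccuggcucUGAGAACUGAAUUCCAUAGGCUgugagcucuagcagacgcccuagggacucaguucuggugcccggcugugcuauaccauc
The hairpins are 65 and 109 bases long.

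The values are Ct values, the PCR cycle at which the signal crosses a threshold, so that a Ct lower by 1 cycle stands for about 2 times as much RNA if every cycle doubles the product. The pools differed in how much they gave. Between 223 and 294 of the 750 assays had a Ct in a pool, the fewest in arthritic pool 2. On panel A the median Ct was 12.5 to 12.8 in 3 pools and 15.9 in arthritic pool 2, and on panel B it was 15.5 to 16.5 in 3 pools and 18.4 in arthritic pool 2. Levels are therefore given in log2 units as the distance of an assay's Ct below the median Ct of its panel in the same pool, taken over the assays detected in all 4 pools.

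MiR-146a was among the strongest signals of the non-arthritic synovium. Its wells gave Cts of 4.99 and 4.94 in non-arthritic pool 1 and of 5.97 and 5.57 in non-arthritic pool 2. In arthritic pool 1 the wells gave 10.3 and 9.72, and in arthritic pool 2 they gave 12.1 and 12.5. Every arthritic well thus came later than every non-arthritic well, with 9.72 as the earliest arthritic and 5.97 as the latest non-arthritic Ct. The gap between the groups' means was 5.79 cycles, with an SD between pools of 0.57 cycles in the non-arthritic and 1.64 in the arthritic group. Duplicate wells of a pool were at most 0.562 cycles apart. The SD between duplicates over all assays was 0.730 cycles for a Ct under 10 and 0.921 cycles for a Ct from 10 to below 15.

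Its place among the assays of panel A moved accordingly. MiR-146a had the Ct of rank 5 among 178 detected panel A assays in non-arthritic pool 1 and of rank 9 among 175 in non-arthritic pool 2, counted from the lowest. In the arthritic pools it had rank 38 of 162 and rank 40 of 144. Ranks across assays also hold differences in how well each assay amplifies, so only the shift between pools can be read from them.

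On the level scale miR-146a was at 7.67 and 7.05 in the non-arthritic pools and at 2.54 and 3.58 in arthritic pools 1 and 2. The groups did not overlap, and the lowest non-arthritic pool lay 3.47 log2 units above the highest arthritic one. MiR-146a fell with a log2 change of -4.30 ± 0.79 (SE, n = 2 pools each, 95% interval -6.24 to -2.35), which is 19.7-fold lower (limma adjusted p = 0.0200). In these bulk samples, fewer cells that express a microRNA and less of it per cell cannot be told apart.

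MiR-146b, read in the next position of the same chip, gave Cts of 7.12 and 6.64 in non-arthritic pool 1 and of 7.71 and 6.503 in non-arthritic pool 2. Its arthritic wells gave 11.7 and 11.3 in pool 1 and 13.4 and 13.9 in pool 2. Again no arthritic well came as early as any non-arthritic well. The ranks in panel A were 16 and 20 in the non-arthritic and 53 and 46 in the arthritic pools.

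Its levels were 5.76 and 5.71 in the non-arthritic pools, closer together than those of miR-146a, and 1.03 and 2.28 in arthritic pools 1 and 2. MiR-146b fell with a log2 change of -4.08 ± 0.80 (SE, n = 2 pools each, 95% interval -6.04 to -2.13), 16.9-fold lower (limma adjusted p = 0.0234). For both microRNAs the lower level was that of arthritic pool 1. In raw Ct both came later in arthritic pool 2, whose panel A median Ct was also later.

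**Figure D1:**
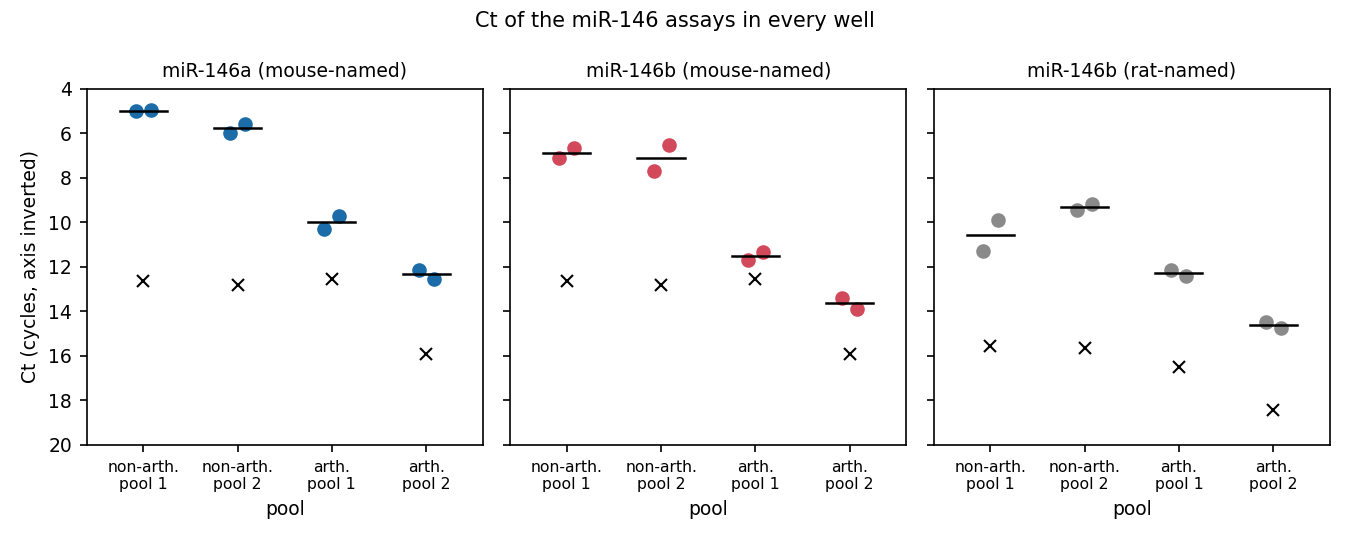
Ct in cycles (inverted axis, up is more RNA) of the 3 miR-146 assays in the 4 pools. Dots are the 2 wells of a pool, bars their mean and crosses the pool's median Ct over the panel. All arthritic wells of miR-146a lie at 9.72 or later and all non-arthritic wells at 5.97 or earlier.

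The rat-named assay of miR-146b, read on panel B, gave a smaller difference that did not pass the test. Its wells gave Cts of 11.3 and 9.87 in non-arthritic pool 1 and of 9.45 and 9.17 in non-arthritic pool 2. The arthritic wells gave 12.1 and 12.4 in pool 1 and 14.5 and 14.7 in pool 2. Arthritic wells were again later than all non-arthritic wells, though the earliest arthritic Ct of 12.1 was close to the latest non-arthritic one of 11.3. The levels were 4.95 and 6.33 in the non-arthritic and 4.25 and 3.81 in the arthritic pools, 0.70 log2 units apart at the nearest. The log2 change was -1.61 ± 0.83 (SE, 95% interval -3.64 to 0.41, limma adjusted p = 0.177). This interval includes 0 and also changes of more than 3 log2 units.

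Set against all assays, 12% of the 209 tested passed in the lower direction (25 assays) and 21.5% in either direction (45 assays). Of the 3 miR-146 assays, 2 passed, both lower. Counted from the largest fall, the change of miR-146a had rank 17, that of mouse-named miR-146b rank 21 and that of the rat-named assay rank 65. In 71.3% of the tested assays the groups did not overlap, and in 32.1% both arthritic pools lay below both non-arthritic pools, as they did for the 3 miR-146 assays. The median log2 change over all 209 was 0.19. On chip A2, which holds both mouse-named assays, 24.2% of the 33 tested assays passed and 12.1% passed in the lower direction, so the share there was close to that of all chips.

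**Figure D2:**
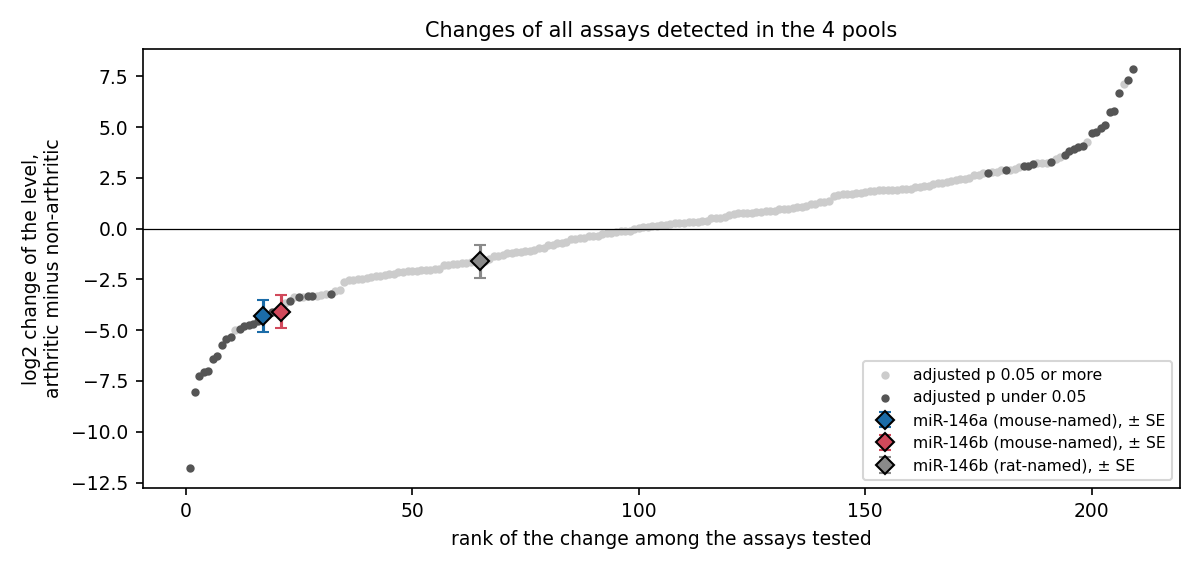
Log2 change of the level (arthritic minus non-arthritic) of the 209 assays tested, ordered from the largest fall. Diamonds are the miR-146 assays with their SE, dark dots other assays with an adjusted p under 0.05. MiR-146a has rank 17 and mouse-named miR-146b rank 21.

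The control RNAs on the same chip were not later by as much as miR-146. On chip A2 the Ct of U6, a spliceosomal RNA, was lower in the arthritic pools by 1.36 cycles on average, with 7.61 and 6.56 in the non-arthritic and 5.78 and 5.67 in the arthritic pools. The Ct of snoRNA135 was 22.004 and 22.5 in the non-arthritic and 18.6 and 19.6 in the arthritic pools. The Ct of snoRNA202 was 9.21 and 8.19 in the non-arthritic and 9.41 and 9.45 in the arthritic pools, later by 0.74 cycles on average. The control RNAs thus disagreed among themselves. On chip B2 of the other panel, U6 and snoRNA135 differed between the groups by -0.10 and -0.15 cycles, while snoRNA202 was later in the arthritic pools by 2.64 cycles.

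The choice of reference set the size of the fall but not its direction. With 7 other references the log2 change of miR-146a ran from -7.15 to -3.77 and that of mouse-named miR-146b from -6.94 to -3.56, and each passed with 6 of the 7. Raw Ct was the exception, with log2 changes of -5.79 and -5.58 and a limma adjusted p of 0.0620 for both. The median of all assays also moved with the reference, from 0.19 to -2.51 with U6, to -1.91 with the 2 snoRNAs, to -2.17 with the 3 control RNAs, to -1.43 with raw Ct and to 0.59 with 1 median over both panels. Counts of rises and falls moved with it, from 20 and 25 to 1 and 54, 4 and 54, 3 and 47, 0 and 8, and 21 and 19 in the same order. The share of assays called lower was 25.8% with U6 and with the snoRNAs, 22.5% with the 3 control RNAs, 3.83% with raw Ct, 9.09% with both panels, 6.22% with the panel mean and 8.13% with the chip median. Relative to that median miR-146a was at -4.49 as reported and between -5.08 and -4.36 with the other references. Mouse-named miR-146b was at -4.27 and between -4.86 and -4.15. The rat-named assay was at -1.80 and between -2.91 and -0.34, and it passed with 0 of the 7 references (limma adjusted p from 0.114 to 0.239). Its log2 change was below 0 with all 7.

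**Figure D3:**
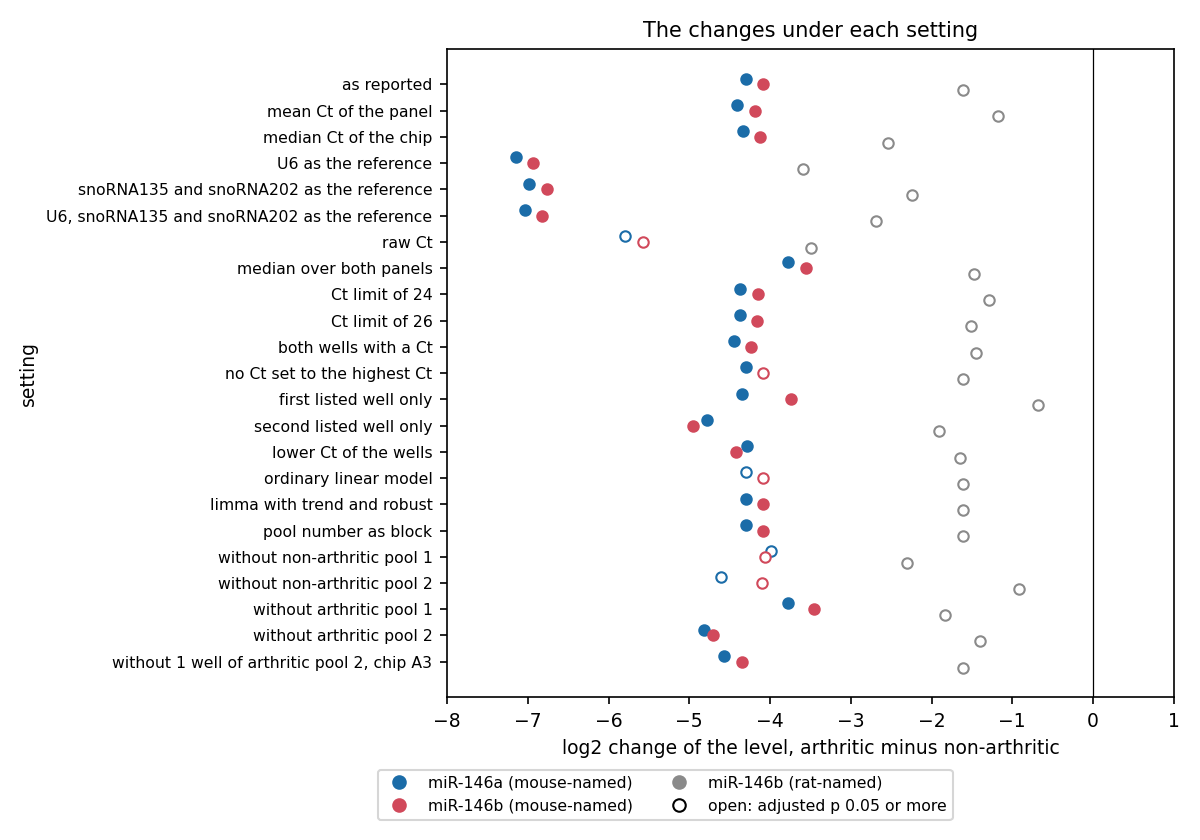
Log2 change of the level of the 3 miR-146 assays under each setting of reference, Ct limit, filter, wells, test and pools left out. Filled dots have a limma (or, for the ordinary model, linear model) adjusted p under 0.05 and open dots do not. All values lie below 0, and the rat-named assay is open throughout.

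Both calls were lost when either non-arthritic pool was left out. MiR-146a was at -3.78 without arthritic pool 1 (limma adjusted p = 0.00108), and at -4.82 without arthritic pool 2 (limma adjusted p = 4.62e-04). Without non-arthritic pool 1 or 2 its log2 change was -3.99 or -4.61 and did not pass (limma adjusted p = 0.195 and 0.132). Mouse-named miR-146b behaved alike, with -3.455 and -4.71 without an arthritic pool, and with -4.06 and -4.10 and adjusted p-values of 0.186 and 0.205 (limma) without non-arthritic pool 1 and 2. The share of assays called lower was 25.9% and 26.1% without arthritic pool 1 and 2, and 4.76% and 3.32% without non-arthritic pool 1 and 2. A lone pool is assumed there to vary like the other group.

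MiR-146a and miR-146b kept nearly the same distance in all pools. Since both were read on 1 chip in the same lines, their difference does not depend on the reference. MiR-146a was above miR-146b by 1.91 and 1.34 log2 units in the non-arthritic pools and by 1.51 and 1.30 in the arthritic pools. In all 8 lines of the chip miR-146b came later than miR-146a, by 0.935 to 2.13 cycles in the non-arthritic and by 1.26 to 1.63 cycles in the arthritic lines, so the ranges overlapped. The difference of their changes was -0.21 ± 0.31 log2 units (SE, n = 2 pools each), from -0.61 to 0.18 over the 4 pairs of pools. It was smaller than its error (exact two-sided permutation p = 0.667). With 2 pools per group that test cannot go below 0.333. The size of the distance itself also holds the difference between the assays' efficiencies. How far either assay also read the other microRNA was not tested.

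The mouse-named and rat-named assays of miR-146b were less alike. The mouse-named level minus the rat-named level was 0.81 and -0.62 in the non-arthritic pools and -3.22 and -1.53 in arthritic pools 1 and 2. The groups did not overlap, and the difference of the changes was -2.47 ± 1.11 log2 units (SE), from -4.03 to -0.91 over the pairs of pools. The exact two-sided permutation p was 0.333, the smallest possible, and 0.667 after Benjamini-Hochberg adjustment over both differences tested. The difference depended on the reference, from -4.53 with the 2 snoRNAs to -1.58 with the median Ct of the chip. In raw Ct, which needs no panel reference, the mouse-named assay came earlier than the rat-named one by 3.70 and 2.21 cycles without arthritis and by 0.753 and 0.983 cycles with it. The medians of the panels also moved apart unequally, with panel B later than panel A by 2.90 and 2.83 cycles without arthritis and by 3.97 and 2.51 cycles with it. The part of the panel in the difference between the assays was not tested.

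Other microRNAs were also read by several assays, which puts that gap in scale. Among 8 pairs of tested assays with the same microRNA name, the changes differed by 0.12 to 4.51 log2 units. The pair of miR-146b came after only that of miR-224, whose mouse-named and rat-named assays differed by 4.51, and the median over the other 7 pairs was 1.14. The mouse-named and human-named assays of miR-223 differed by 0.12.

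The passenger strand of miR-146b was at the edge of detection. It is shown with its seed in capitals because that seed, unlike that of the 5p strand, is not the miR-146 seed.
mmu-miR-146b-3p: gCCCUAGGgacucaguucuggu
Its assay (mmu-miR-146b star) gave a Ct in 1 of 8 wells, 26.954 in non-arthritic pool 1, close to the highest Ct recorded on any chip, 26.997. No comparison of the arms between the groups was possible.

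The patterns over the 4 pools were compared by the distance between levels after each assay was centred on its own mean. MiR-146b was the assay nearest to miR-146a, with a distance of 0.48 log2 units against a median of 4.82 over the tested assays outside miR-146. Among these, miR-23b was the nearest to both, with a distance of 1.19 from miR-146a and 0.89 from miR-146b. MiR-23b, a microRNA known to restrain signalling by interleukin-17 and tumour necrosis factor, had levels of -1.55 and -1.26 in the non-arthritic and -5.06 and -4.41 in the arthritic pools. It fell (log2 change -3.33, SE 0.74, limma adjusted p = 0.0307) in the same direction with all 7 other references. Next to miR-146a came miR-29b star (distance 1.41), miR-196b (1.5005), miR-484 (1.51) and miR-676 (1.58). MiR-196b, encoded in a Hox gene cluster, had a log2 change of -4.27 ± 0.80 (SE), while miR-484 had one of -2.996 ± 0.95 that did not pass (limma adjusted p = 0.0724). Next to mouse-named miR-146b came miR-1982.2 (1.28), miR-484 (1.29), miR-676 (1.32) and miR-29b star (1.53). With 4 pools, a small distance mostly shows a fall of like size.

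The rat-named assay had other neighbours. The nearest were miR-30d (distance 0.54) and the human-named assay of miR-140-3p (0.63), with log2 changes of -1.67 ± 0.74 and -1.75 ± 0.74 (SE) that did not pass. After them came miR-20b (0.84), the human-named assay of miR-206 (0.84) and miR-15a (0.97), which did not pass either. The distance of the rat-named assay from mouse-named miR-146b was 2.92 log2 units, near the median of 3.02 over the assays outside miR-146. The log2 change of the human-named miR-140-3p assay turned to 0.78 with the median Ct of the chip as the reference.

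**Figure D4:**
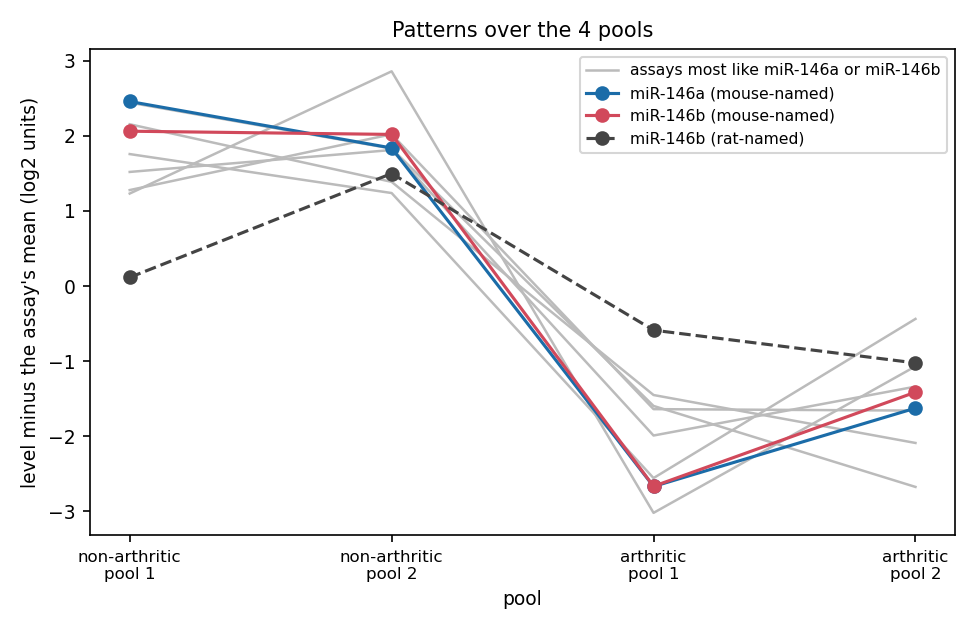
Level minus the assay's own mean, in log2 units, in the 4 pools for the miR-146 assays and for the assays most like miR-146a or mouse-named miR-146b (grey). The lines of miR-146a and mouse-named miR-146b nearly coincide, and the rat-named assay (dashed) has a shallower course.

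MiR-146 is usually described with other microRNAs that inflammatory signals induce or that curb them. Of a list of 22 such microRNAs, 18 could be tested: 1 rose, 3 fell, and the other 14 missed the threshold. The 4 called of 18 are a share close to the 21.5% called of all tested assays, of which 9.57% were called higher and 12% lower. Their median log2 change was 1.32, against 0.19 over all tested assays. Those that fell were miR-23b, miR-222, which restrains the cell-cycle inhibitor p27, and miR-16, a brake on cyclins, with log2 changes of -3.33 ± 0.74, -8.02 ± 0.86 and -6.43 ± 0.98 (SE). The fall of miR-222 passed with 7 and that of miR-16 with 5 of the 7 other references. MiR-19a, of the growth-promoting miR-17-92 cluster, rose by 4.98 ± 1.01 log2 units (SE), a call kept with 1 of the 7 other references.

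Other microRNAs of the list did not pass the test or could not be tested. MiR-155, which promotes inflammatory cytokine production, gave a Ct in arthritic pool 1 (21.6) and in 1 well of non-arthritic pool 1 (26.965) and was not tested. MiR-21, which represses the tumour suppressor Pdcd4, had Cts of 12.4 and 12.9 in the non-arthritic and of 8.63 and 13.8 in the arthritic pools, and differed by 2.95 ± 0.89 log2 units (SE, limma adjusted p = 0.0651). MiR-132, induced in neurons and activated macrophages, had a log2 change of -1.12 ± 1.56, and miR-212, encoded beside it, one of 0.53 ± 0.73 that was below 0 with 5 of the 7 other references. Neither passed. MiR-31 had a log2 change of 3.41 ± 1.31, with Cts of 16.0 and 22.8 in the arthritic pools, and did not pass (limma adjusted p = 0.102). MiR-125b-5p, read on chip A2 beside miR-146, differed by 2.91 ± 1.00 log2 units (SE, limma adjusted p = 0.0814), opposite in sign to miR-146 with all 8 references. MiR-9, miR-124 and miR-147 gave no Ct in any well.

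Markers of other cell types moved in different ways beside miR-146. Their counts are to be read against the 9.57% of all tested assays called higher and the 12% called lower. A summed level adds assays of unequal efficiency on a linear scale, so it is weighted toward the list's highest levels. It is given only as the value that stood beside the fall. The skeletal muscle, fibroblast and adipose lists join assays of both panels, whose reference medians differ. An assay without a Ct in a pool was left out of that pool's sum.

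Of 4 myeloid microRNAs, 2 were tested and 1 rose, miR-142-3p by 3.83 ± 0.97 log2 units (SE), a call kept with 1 of the 7 other references. The Cts of miR-142-3p were 15.6 and 15.5 in the non-arthritic and 10.4 and 16.0 in the arthritic pools. In raw Ct it thus came earlier only in arthritic pool 1. MiR-223 did not pass, at 1.77 ± 0.85. MiR-511, of macrophages, had Cts of 16.8 and 16.6 in the non-arthritic pools and was not detected in the arthritic ones, and miR-142-5p had a Ct in 1 pool of each group. The summed myeloid level was 4.35 and 4.09 in the non-arthritic and 5.36 and 6.76 in the arthritic pools, an order that turned over with each of the 3 control-RNA references.

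Of 3 lymphoid microRNAs 0 passed, and their signs differed, with log2 changes of -1.99 ± 0.79 for miR-150, -2.34 ± 1.07 for miR-342-3p and 2.43 ± 0.75 for miR-181a. The summed lymphoid level, 7.22 and 8.13 in the non-arthritic and 5.39 and 6.15 in the arthritic pools, was nearly that of miR-150 alone, at 7.20, 8.12, 5.29 and 6.04 in the same order.

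Of 4 fibroblast microRNAs, 3 were tested and 0 passed. MiR-214 and miR-199b had log2 changes of 2.32 ± 0.85 and 1.68 ± 0.92, while miR-199a-3p had one of -0.69 ± 1.25, with levels of 2.42 and -1.13 in the arthritic pools. MiR-199a-5p had a Ct in arthritic pool 1 only. The summed fibroblast level was 4.83 and 4.02 against 6.66 and 6.23, an order that also turned over with the control-RNA references.

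Of the skeletal muscle list, 2 of 4 were tested and 1 fell, miR-133a, with a log2 change of -7.07 ± 0.78. MiR-206 did not pass, at -2.41 ± 0.87, and miR-1 and miR-133b had no Ct in the arthritic pools. The summed level was 9.07 and 10.3 in the non-arthritic and 6.996 and 6.17 in the arthritic pools. In the arthritic pools the sum was nearly the level of miR-206, read on panel B, at 6.96 and 6.13. Of the smooth muscle list, both were tested and 1 fell, miR-143, with a log2 change of -4.12 ± 1.00, while miR-145 was at -2.09 ± 0.87. The call of miR-143 was kept with 3 of the 7 other references. The human-named assay of miR-143, read on panel B, was at -2.06 ± 0.75 and did not pass (limma adjusted p = 0.0936). The summed smooth muscle level was 6.55 and 6.92 against 3.79 and 5.45.

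Both endothelial microRNAs were tested and 0 passed, at -2.38 ± 0.74 for miR-126-3p and -2.02 ± 1.03 for miR-126-5p, with summed levels of 9.12 and 9.51 against 6.68 and 7.21. Of the cartilage list, 2 were tested and 0 passed, with opposite signs, at -1.78 ± 0.90 for miR-140 and 1.93 ± 0.76 for miR-455, and the summed level was -0.55 and -0.77 against -1.31 and -2.86. Of the adipose and erythroid lists, 3 and 1 were tested and 0 passed. The summed adipose level was 6.64 and 7.13 against 4.32 and 6.88, and the erythroid one 0.81 and 1.61 against 0.98 and -0.61, and in both the groups overlapped. The part of cell makeup in the fall of miR-146 was not tested.

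The authors' deposited table gives the same order of the 3 assays. In the authors' deposited table miR-146a had averages of 18.1 in the non-arthritic and 13.5 in the arthritic group on a log2 scale, a difference of -4.57 or 23.8-fold lower. In the authors' deposited table mouse-named miR-146b differed by -4.30 and the rat-named assay by -2.14. How those averages were scaled is not stated in the files or labels.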

How the data were processed

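Total RNA of the synovium pools was reverse transcribed with TaqMan microRNA reagents, per the labels' protocols. Per the file headers, the deposited scores are raw BioMark Ct values; a code stands for no Ct. How the Ct threshold was set is not given here. A second table of the authors, with log2 averages and differences and the ratio (fold) of the groups, served only for comparison.

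Duplicate wells with a Ct were averaged, and 1 well under a Ct of 35 was enough to count an assay as detected in a pool. The reference was the median Ct, per pool and panel, of the 134 panel A or 75 panel B microRNA assays detected in all 4 pools. The test was limma's (version 3.58.1, R 4.3.3) (two-sided, Benjamini-Hochberg adjustment over 209 assays, threshold 0.05). Its prior had 4.02 degrees of freedom beside 2 residual ones. Exact permutation tests compared differences between members. The replicate numbers are not stated to pair the pools.

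The named items are the members, all other miR-146 assays, the 5 assays nearest to each member, the control RNAs, and a list of 22 inflammation-responsive and 9 lists of cell type microRNAs. The members and lists were chosen with earlier results of these data known. Alternatives were other references, Ct limits, filters, wells, moderation, a pool-number block and each pool left out. Leaving out 1 well of arthritic pool 2 on chip A3 was added after seeing the data. Sequences and gene positions are from RefSeq tables of GRCm38.p6, and plots come from matplotlib 3.10.9 (Python 3.11.15).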

Additional observations from a re-analysis of the deposited data

How the results depend on the processing

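Of 22 alternatives, miR-146a passed in 18 and mouse-named miR-146b in 17, and the rat-named assay in 0, all with log2 changes below 0. The calls of miR-146a and miR-146b were lost with raw Ct (-5.79 and -5.58), with ordinary linear models (-4.30 and -4.08, adjusted p = 0.158 and 0.159) and without either non-arthritic pool. That of miR-146b was also lost with missing Ct values set to the highest Ct (-4.08, limma adjusted p = 0.0540, with 325 assays tested). Without 1 pool miR-146a ran from -4.82 to -3.78, mouse-named miR-146b from -4.71 to -3.455 and the rat-named assay from -2.30 to -0.92. The rat-named assay was at -0.68 with the first listed well. The count of 45 changed assays became 25 with the panel mean, 8 with raw Ct, 29 with missing values at the highest Ct, 21 with the first listed well, 0 with ordinary linear models (55 at an unadjusted p under 0.05) and 13 to 117 without 1 pool: 17 and 13 without non-arthritic pool 1 and 2, 117 and 114 without arthritic pool 1 and 2. The difference between the changes of miR-146a and miR-146b was -0.61 with the first listed well, 0.18 with the second, 0.13 with the lower Ct, and -0.50 to 0.073 without 1 pool. That between the mouse-named and rat-named assays was -4.53 with the 2 snoRNAs, -4.13 with the 3 control RNAs, -1.58 with the chip median, and -3.31 to -1.62 without 1 pool. Causes were not tested. With the pool number as a block the count was 66 and the log2 changes were the same (limma adjusted p = 0.00161, 0.00273 and 0.252). The difference between pools 1 and 2 in non-arthritic synovium correlated with that in arthritic synovium at r = 0.074 over 209 assays. This value cannot settle whether same-numbered pools are paired. Precision is limited by 2 pools per group.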
